A study of Mus musculus with 6 samples.

Results

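The S100 genes encode small EF-hand proteins that bind calcium and then attach to other proteins. The set described here was given as a list of 8 mouse genes, S100a1, S100a4, S100a6, S100a10, S100a11, S100a13, S100a16 and S100b and was chosen by family name, with the signals and log2 differences of these same arrays, FoxO-null against wild-type, already known. Each probe set that the platform's annotation assigns to exactly 1 of these symbols was read on all 6 arrays. That gave 12 probe sets for 7 of the 8 genes, out of 45037 non-control probe sets and 18193 genes. The only probe set that names S100a11 also names 2 other loci, so no value is given for S100a11. All 7 measured genes passed the filter on low signals.

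The arrays hold total RNA of 6 mouse neural stem cell lines, 1 array per line: 3 lines labelled FOXO null and 3 labelled FOXO WT. The labels call the lines independent. They name neither the FoxO alleles nor any Cre driver, strain, passage or agent, and they give no age of the animals. FoxO proteins are forkhead transcription factors that insulin and growth factor signals hold outside the nucleus. Of 9 probe sets for Foxo1, Foxo3 and Foxo4, 8 had a higher fitted level under the FoxO-null label. Groups did not overlap, with that label higher, in 5 of them and in 6.95% of all probe sets. None reached a limma adjusted p under 0.05 (lowest 0.0882). The brightest Foxo1 probe set, for example, read 77.9, 77.8 and 100.3 in those lines and 20.3, 20.4 and 31.7 in the lines labelled wild-type. These signals do not show a loss of FoxO RNA under the FoxO-null label. The place of the probe sets relative to any deleted exon is not known here, so they cannot check the labels. Every direction below follows the labels only. All 10 listed neural stem cell markers, among them Sox2 and Nes, passed the signal filter. Of 9 microglial markers 5, and of 5 endothelial markers 2, lay at or under the bacterial control probe sets on all 6 arrays. The wild-type 1 array stood apart in its 18S rRNA 5′ control, at 211 against 23.5 to 38.9 on the others.

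S100 proteins act as dimers. Calcium opens a hydrophobic face that grips annexins, cytoskeletal proteins or kinases, and S100a10 is the exception that holds this open shape without calcium. In the brain S100b is known as a marker of astrocytes and of oligodendrocyte precursors, S100a6 and S100a16 are known from astrocytes, and S100a4 from migrating and mesenchymal cells. Most S100 genes lie side by side on mouse chromosome 3, while S100b lies alone on chromosome 10.

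Groups apart with the FoxO-null label higher were found in 4 of the 7 measured genes and in 8.08% of all genes tested. The list was made with these differences known, so nothing is read from the count. The brightest probe set of S100a1, S100a13, S100a16 and S100a6 read higher in every line labelled FoxO-null than in any line labelled wild-type. The ratios of mean signal were between 1.59 and 2.02. A second S100a1 probe set gave a ratio of 1.51, and a second S100a16 probe set had overlapping groups and a ratio of 1.22. In their brightest probe sets, S100a10, S100a4 and S100b had overlapping groups and ratios between 0.925 and 1.003. In the order of RefSeq's GRCm38.p6 gene table, S100a1, S100a13 and S100a16 are close neighbours, with only S100a14 between S100a13 and S100a16, and S100a6 and S100a4 follow further along the same run. S100a10 lies in a separate stretch of chromosome 3 beside S100a11.

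S100a1 and S100a13 are head-to-head neighbours, so their start regions are shown here before their values. Sequences came from RefSeq's promoter windows on GRCm38.p6, which run from 250 bases before to 50 bases after a start site, and 7 of the 8 genes were found there; S100a10 was not. The S100a1 window is chr3:90514281-90514580 on the minus strand and the S100a13 window is chr3:90514185-90514484 on the plus strand. Their start sites are 105 bases apart and the windows share 204 bases, which are in capitals in both lines, each read 5′ to 3′ along its own gene.

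S100a1: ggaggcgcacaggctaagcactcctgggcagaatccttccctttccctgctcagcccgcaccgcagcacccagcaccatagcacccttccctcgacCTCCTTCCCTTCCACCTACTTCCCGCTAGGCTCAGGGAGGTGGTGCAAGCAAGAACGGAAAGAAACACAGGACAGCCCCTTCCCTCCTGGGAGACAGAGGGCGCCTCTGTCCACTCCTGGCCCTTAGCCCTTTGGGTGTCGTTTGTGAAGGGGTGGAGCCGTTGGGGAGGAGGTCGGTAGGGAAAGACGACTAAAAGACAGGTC

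S100a13: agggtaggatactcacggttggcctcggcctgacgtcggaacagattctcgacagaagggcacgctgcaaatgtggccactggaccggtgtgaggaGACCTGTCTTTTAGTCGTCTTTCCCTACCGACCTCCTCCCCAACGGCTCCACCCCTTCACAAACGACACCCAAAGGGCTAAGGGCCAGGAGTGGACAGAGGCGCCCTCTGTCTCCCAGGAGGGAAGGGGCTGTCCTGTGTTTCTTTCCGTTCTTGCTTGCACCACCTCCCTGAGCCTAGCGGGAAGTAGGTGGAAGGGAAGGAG

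The capitals of S100a13 are the reverse complement of those of S100a1. The shared stretch therefore holds the start sites of both genes, which are transcribed away from each other. The whole S100a1 window is 61% G or C and the S100a13 window 59.3%. The FoxO binding core GTAAACA, searched on both strands, was in 0 of the 8 windows found for 7 genes, as was the insulin response core CAAAACA. Of all 32851 RefSeq windows of 300 bases, 3.65% held the first and 6.28% the second. The TATA box letters TATAAA, found in 13.6% of all windows, occurred only in the S100a4 window among the 8, starting 31 bases before the start site. The absence of these letters says nothing of sites outside these windows.

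**Figure D1:**
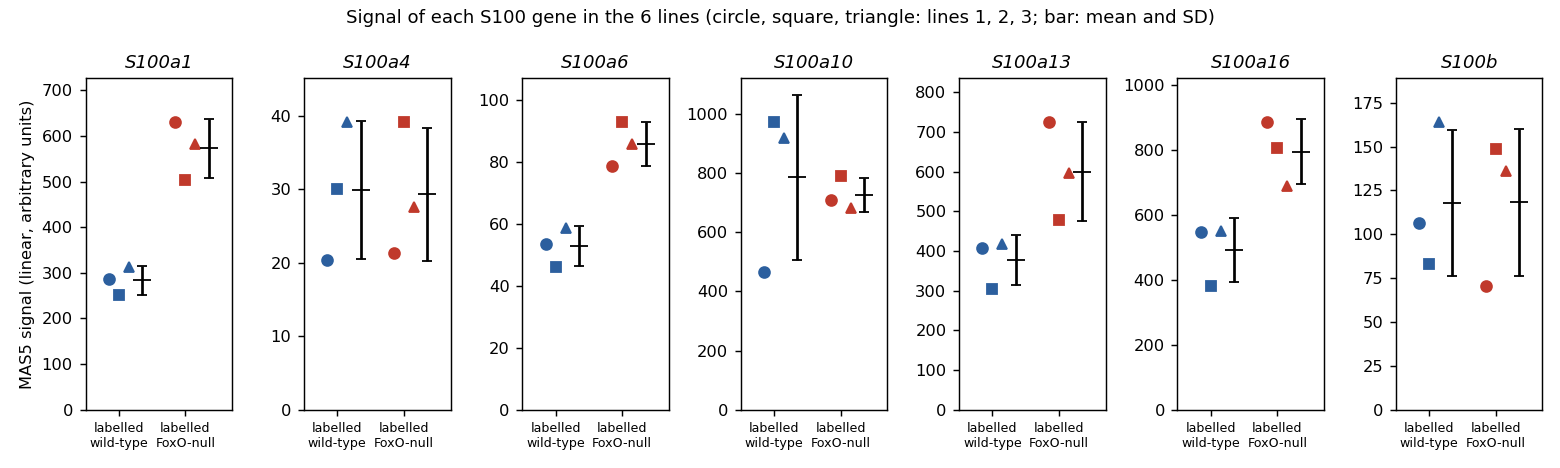
MAS5 signal (linear, arbitrary units, vertical axis from 0) of the brightest probe set of each of the 7 measured S100 genes, in 3 lines labelled wild-type (blue) and 3 labelled FoxO-null (red); the bar beside each group is its mean and SD. S100a1, S100a6, S100a13 and S100a16 show every red point above every blue point, and the other panels overlap.

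S100a1 encodes a calcium sensor known from heart muscle, where it acts on calcium pumps and release channels, and it is also made in the brain. Its brighter probe set read 632, 504 and 582 in FoxO-null lines 1 to 3 and 286, 251 and 314 in wild-type lines 1 to 3. The lowest line labelled FoxO-null was well above the highest line labelled wild-type. The means were 573 ± 64.1 and 284 ± 31.3 (SD, n = 3 lines each), a log2 difference of 0.999 ± 0.13 (FoxO-null minus wild-type ± standard error of the limma fit, on the log2(signal + 5.94) scale). The second S100a1 probe set read 173, 146 and 150.1 against 99.5, 99.0 and 112. It too had groups that do not overlap, with a smaller log2 difference of 0.57 ± 0.16.

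S100a13, whose protein takes part in the release of growth factors that lack a signal peptide, has 1 probe set. It read 726, 478 and 596 in the lines labelled FoxO-null and 407, 305 and 418 in those labelled wild-type. FoxO-null 2 was the lowest of its group and wild-type 2 the lowest of all 6 lines. The means were 600.1 ± 124 and 377 ± 62.5 (n = 3 each), a log2 difference of 0.66 ± 0.17. S100a1 and S100a13 ranked the 6 lines in the same order, from FoxO-null 1 at the top to wild-type 2 at the bottom. With quantile normalized arrays the order was again shared, and with median-centred arrays it differed only in FoxO-null lines 2 and 3.

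S100a16, a widely expressed member with few known targets, read 888, 808 and 689 in its brighter probe set in the lines labelled FoxO-null and 547, 380.2 and 551 in those labelled wild-type. The groups were clearly apart. The means were 795 ± 100.3 and 493 ± 97.7 (n = 3 each), and the log2 difference was 0.70 ± 0.16. Its second probe set read 404, 372 and 434 against 373, 325 and 291, and here FoxO-null 2 fell just below wild-type 1. That probe set gave a log2 difference of 0.29 ± 0.13, so the probe sets of S100a16 share a direction but not a size.

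S100a6 encodes calcyclin, which binds the calcyclin-binding protein Cacybp and annexins. Its single probe set gave 78.6, 93.0 and 85.9 in the lines labelled FoxO-null and 53.7, 46.1 and 58.8 in those labelled wild-type. These groups do not overlap either, with means of 85.9 ± 7.21 and 52.9 ± 6.41 (n = 3 each) and a log2 difference of 0.65 ± 0.22. Wild-type 2 was the lowest of the 6 lines for S100a1, S100a13, S100a16 and S100a6 under the deposited scaling, median centring and quantile normalization.

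**Figure D2:**
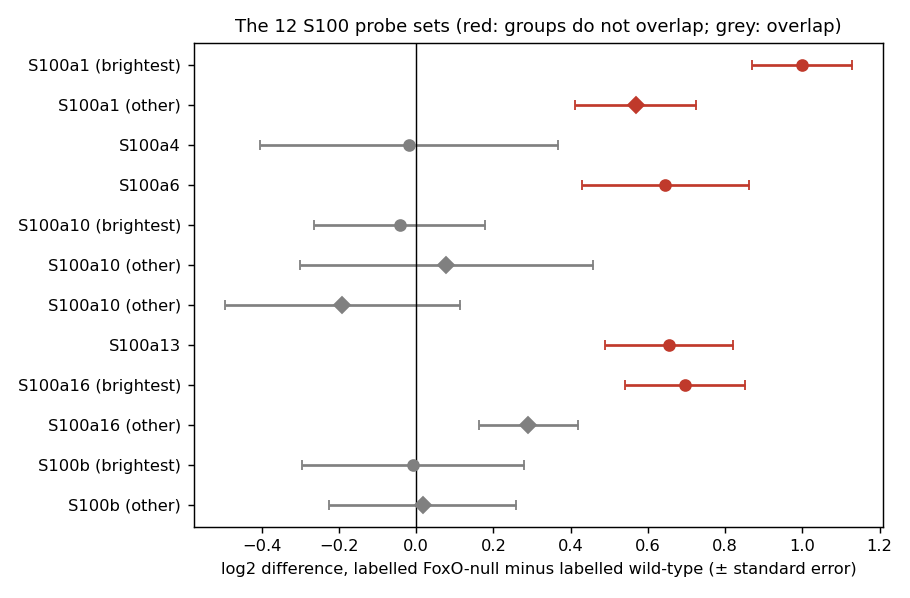
Log2 difference (lines labelled FoxO-null minus lines labelled wild-type, horizontal axis) with its standard error for all 12 S100 probe sets; circles are the probe set standing for a gene and diamonds the others. The 5 red probe sets, of S100a1, S100a6, S100a13 and S100a16, have groups that do not overlap and lie between 0.57 and 0.999, while the S100a4, S100a10 and S100b probe sets lie between -0.19 and 0.08.

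The limma fit over 12665 genes, with Benjamini-Hochberg adjusted p under 0.05, called 1 of the 7 genes, S100a1; it called 0.0395% of all genes. Since this comparison was in view when the genes were listed, the call is a description and no member's own p-value is printed. Groups that do not overlap, with the lines labelled FoxO-null higher, were seen in 4 of 7 genes against 8.08% of all genes, and in 5 of the 12 probe sets against 6.95% of all probe sets; nothing is read from these shares. No member had groups apart in the other direction, which 7.96% of all genes did. The median log2 difference of the 7 genes was 0.65, beside 0.0098 over all genes tested. S100a1 kept its call in 2 of the 6 fits that left out 1 line, without FoxO-null 2 or without wild-type 3, and 0 members were called without any of the other 4 lines. In the fit of all 45037 probe sets without a signal filter, 0 of the 12 S100 probe sets passed and 0.00222% of all probe sets did; 6 of the 12 were at an unadjusted limma p under 0.05, as were 7.24% of all probe sets, and nothing is read from this either.

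S100a10 encodes p11, the partner of annexin A2 in a complex that carries channels and receptors to the cell surface. Its brightest probe set read 708, 791 and 681 in the lines labelled FoxO-null and 466, 974 and 917 in those labelled wild-type. The lines labelled FoxO-null lay between wild-type 1, the lowest, and wild-type 2 and 3, the highest. The means were 726 ± 57.3 and 786 ± 278 (n = 3 each), with a log2 difference of -0.04 ± 0.22. In the gene fit, where the standard error with all lines was 0.23, the difference was -0.38 ± 0.12 without wild-type 1 and 0.15 ± 0.23 without wild-type 2. The 18S rRNA 5′ control was high on wild-type 1 (211), and its part in the S100a10 signal there was not tested. A second S100a10 probe set of similar brightness read 723, 436 and 697 against 372, 989 and 889.6, again with wild-type 1 lowest. The third was near the bacterial controls, at 19.8 to 30.5.

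Anxa2, which encodes that annexin partner, was picked out after its values were seen because its lines follow those of S100a10. It read 564, 825 and 758 in the lines labelled FoxO-null and 467, 1278 and 979 in those labelled wild-type. Wild-type 1 was again the lowest line and wild-type 2 and 3 the highest. Its log2 difference was -0.24 ± 0.29 (limma adjusted p 0.824), and it turned to 0.05 when all its probe sets were averaged and to 0.06 without wild-type 2.

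**Figure D3:**
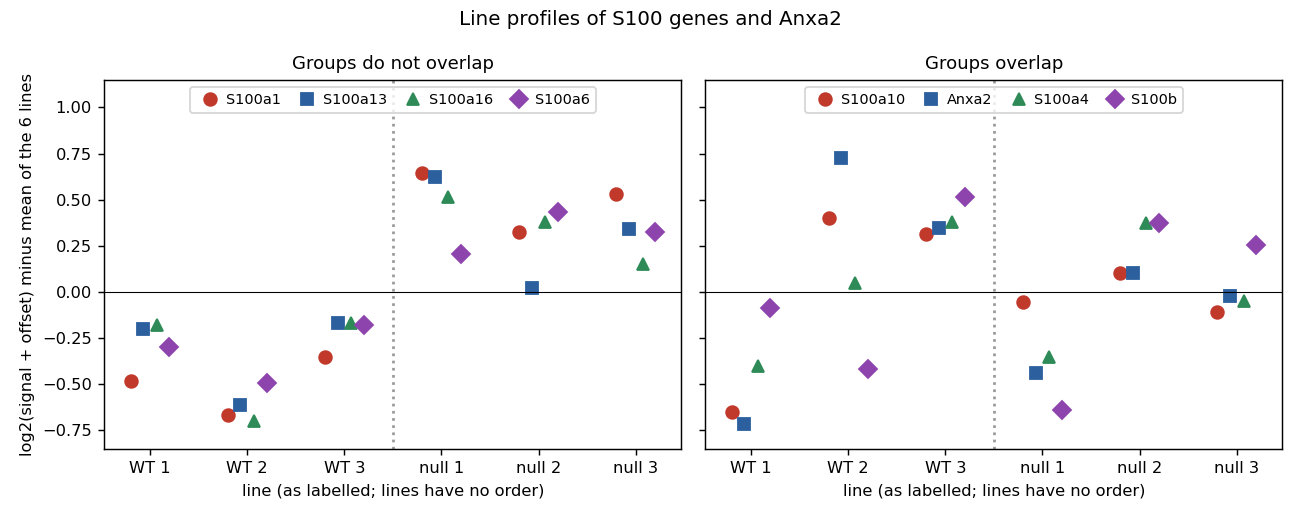
Log2(signal + 5.94) of each gene minus its mean over the 6 lines (vertical axis), for each line as labelled (horizontal axis; WT is wild-type, null is FoxO-null). On the left, S100a1, S100a13, S100a16 and S100a6 are below 0 in all 3 wild-type lines and lowest in wild-type 2. On the right, S100a10 and Anxa2 are lowest in wild-type 1 and highest in wild-type 2. S100a4 is also lowest in wild-type 1 but highest in wild-type 3, and S100b is lowest in FoxO-null 1 and highest in wild-type 3.

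S100a4, known as a protein of motile and mesenchymal cells that binds non-muscle myosin, was weak. It read 21.2, 39.1 and 27.6 in the lines labelled FoxO-null and 20.4, 30.0 and 39.2 in those labelled wild-type, each above the highest bacterial control of its array, which lay between 14.4 and 27.6. Both groups covered nearly the same range, with means of 29.3 ± 9.04 and 29.8 ± 9.39 (n = 3 each) and a log2 difference of -0.02 ± 0.39. A difference under that standard error was not detectable at this signal, and larger differences may also have been missed. Mesenchymal markers were low as well: 4 of 9 passed the signal filter, Dcn and Postn lay at or under the bacterial controls on all arrays, and the summed signal of the 9 was 192 to 282 in the lines labelled FoxO-null and 214 to 334 in those labelled wild-type.

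S100b, the glial marker, had overlapping groups. Its brighter probe set read 70.5, 149 and 136 in the lines labelled FoxO-null and 106, 83.4 and 164 in those labelled wild-type. FoxO-null 1 was the lowest of all lines and wild-type 3 the highest, with FoxO-null 2 and 3 next. The means were 118 ± 41.9 and 118 ± 41.7 (n = 3 each), a log2 difference of -0.01 ± 0.29, and in the gene fit 0.31 ± 0.26 without FoxO-null 1 and 0.25 ± 0.29 without wild-type 3. The second S100b probe set read 93.2, 97.8 and 94.8 against 75.2, 75.7 and 145, and its log2 difference was 0.02 ± 0.24. In that probe set the lines labelled FoxO-null were nearly level, and wild-type 3 alone stood above them.

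Glial markers lay mostly on the positive side. The lists were made with earlier results of these data known, so nothing is read from counts in this and the later lists. They stand beside those over all genes. The median log2 difference of all genes tested was 0.0098. Of all 12665 genes tested, 1292 were at an unadjusted limma p under 0.05. Groups were apart with the FoxO-null label higher in 8.08% of all genes, and with it lower in 7.96%. Of 14 astrocyte markers tested, 13 had a positive log2 difference and 8 had groups that do not overlap; 0 were called by limma (9 at an unadjusted p under 0.05), and their median was 0.49. The summed astrocyte signal over all 15 listed genes was 16561 to 19608 in the lines labelled FoxO-null and 11460 to 13911 in those labelled wild-type, and Gjb6 lay at or under the bacterial controls on all arrays. Glul, the glutamine synthetase of astrocytes, was at 0.89 ± 0.13 (limma adjusted p 0.0504), the sodium pump subunit gene Atp1b2 at 0.90 ± 0.15 (0.0729) and Ndrg2 at 0.93 ± 0.16 (0.0876). The negative astrocyte marker was Sparcl1, at -0.02. Of 12 oligodendrocyte lineage markers tested, 10 were positive, with a median of 0.42, 5 had groups apart and 1, the myelin enzyme gene Cnp, rose (0.87 ± 0.12, limma adjusted p 0.0471). Its call was lost in each fit that left out 1 line other than wild-type 3 (limma adjusted p 0.0617 to 0.325), and under 6 of the 8 other processing alternatives (0.0501 to 0.485). The receptor gene Gpr17 was at 0.73 ± 0.11 (0.0726) and the transcription factor gene Sox10 at 0.94 ± 0.17 (0.109). The negative oligodendrocyte lineage markers were Olig2 at -0.18 and Olig1 at -0.08. The summed signal of the 13 oligodendrocyte genes with a probe set was 17597 to 18216 against 14090 to 15736, and Mog lay at or under the bacterial controls. Of 10 neural stem cell markers tested, 7 were positive, 4 had groups apart with the FoxO-null label higher, and 1, the Notch effector gene Hes5, rose. Hes5 read 406, 349 and 295 in the lines labelled FoxO-null and 114, 134 and 133 in those labelled wild-type, differing by 1.41 ± 0.15 on the log2 scale (limma adjusted p 0.0157). Without FoxO-null 1 the call was lost (0.192). The stem cell transcription factor gene Nr2e1 was at 0.67 ± 0.17 (0.214) and the RNA-binding protein gene Msi1 at 0.51 ± 0.18 (0.372). The negative stem cell markers were Nes at -0.36, Hes1 at -0.23 and Vim at -0.08. The summed signal of the 10 was 27387 to 30815 against 21800 to 29763, which overlaps.

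Some markers lay the other way. Of 8 neuron markers tested, 5 were negative and 2 had groups apart with the FoxO-null label lower; limma called 0 (1 at an unadjusted p under 0.05), and the summed signal was 1538 to 1558 against 1416 to 1813. The neuronal tubulin gene Tubb3 was at -0.64 ± 0.27 (limma adjusted p 0.452) and the proneural factor gene Neurod1 at -0.90 ± 0.49 (0.563). All 3 lines labelled FoxO-null were under the bacterial controls for Neurod1. The highest control was 19.2 to 27.6 on those arrays and 14.4 to 19.1 on the wild-type arrays. Stmn2 had overlapping groups, at -0.32 ± 0.34 (limma adjusted p 0.799). Dcx, Snap25 and Elavl3 were positive, at 0.16, 0.14 and 0.10, and the list median was -0.05. Of 3 Schwann cell markers tested, 3 were negative and 0 were called by limma (1 at an unadjusted p under 0.05). Pmp22, a myelin protein gene, was at -0.61 ± 0.17 (limma adjusted p 0.265) with its groups apart. Egr2 at -0.57 ± 0.38 (0.639) and Cdh19 at -0.04 ± 0.36 (0.983) had overlapping groups. Glul, Cnp and Hes5 had groups apart with the FoxO-null label higher, as S100a1, S100a13, S100a16 and S100a6 had, and Pmp22 with it lower. Genes picked for groups apart divide the lines by label by definition, so nothing is read from this. Other markers hardly differed, among them Map2 at -0.005 and Sparcl1 at -0.02. The part of any marker in the S100 differences was not tested. In RNA from whole cultures, a change in the number of cells of a type and a change of RNA per cell cannot be told apart.

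Genes near the S100 members on chromosome 3 were read for comparison. For the run that holds S100a1, those that are not S100 genes lie on the S100a1 side only. Of 9 other protein-coding genes within 3 places of a member, 4 passed the signal filter. Ilf2, Snapin and Chtop, the next genes on the S100a1 side, had log2 differences of -0.22 ± 0.13, 0.30 ± 0.17 and -0.13 ± 0.14. Rptn lies near S100a11, in the separate stretch, and was at 0.18 ± 0.41. Its signal was weak, at 14.3 to 27.6, and above the bacterial controls on only 3 arrays. None was called by limma and all 4 had overlapping groups. Chtop, the direct neighbour of S100a1, read 754, 839 and 679 in the lines labelled FoxO-null and 997, 803 and 705 in those labelled wild-type, with wild-type 1 at the top.

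**Figure D4:**
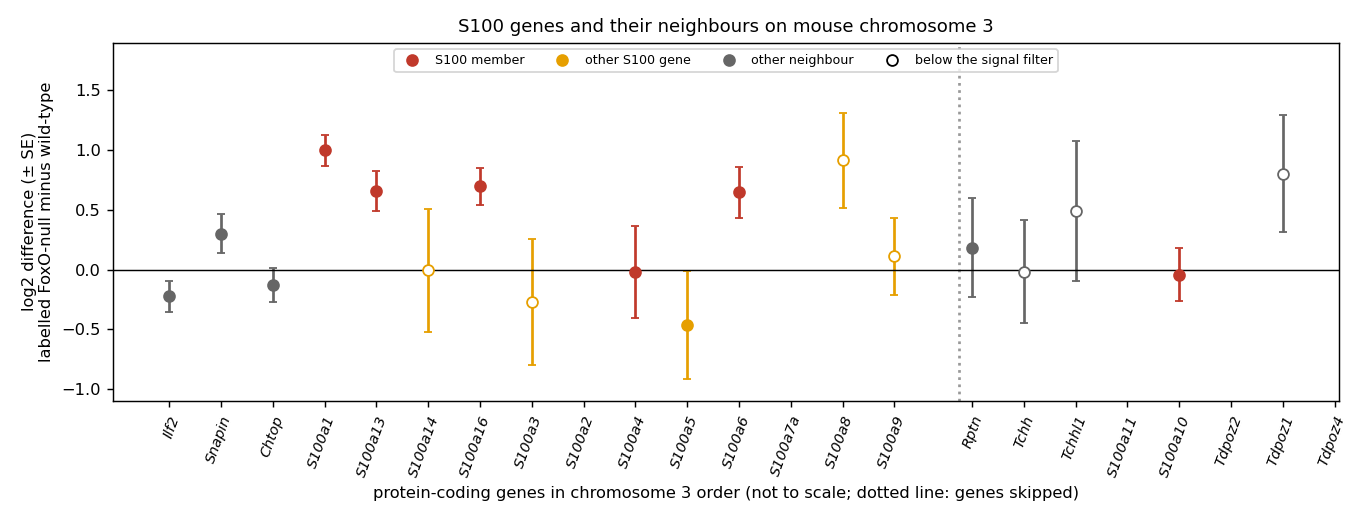
Log2 difference with its standard error (vertical axis) for the 7 chromosome 3 members and the protein-coding genes within 3 places of them, in gene order and not to scale (horizontal axis); open circles did not pass the signal filter, and names without a point have no probe set of their own. The red S100a1, S100a13, S100a16 and S100a6 points lie between 0.65 and 0.999, and the filled grey neighbours between -0.22 and 0.30.

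The other S100 genes gave little signal. Of 8 listed, 6 have a probe set of their own and only S100a5 passed the signal filter, reading 6.86, 22.6 and 17.1 in the lines labelled FoxO-null and 21.7, 21.0 and 23.7 in those labelled wild-type (log2 difference -0.46 ± 0.43, limma adjusted p 0.765). Its 3 readings under the FoxO-null label were below the highest bacterial control of their arrays and its 3 readings under the wild-type label above. That difference is therefore taken against a group not above background. The limits themselves differed by group. The highest control was 19.2, 27.6 and 26.9 on the FoxO-null arrays and 14.4, 15.8 and 19.1 on the wild-type arrays. S100a8, S100a9, S100a14 and S100g lay at or under the bacterial controls on all 6 arrays. S100a3 was above them on 1 array, FoxO-null 1, where it read 21.9. S100a8 and S100a9 encode calprotectin, the abundant calcium-binding complex of neutrophils.

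Genes whose proteins bind S100 proteins held no called gene. Of 18 partner genes tested, limma called 0 (2 at an unadjusted p under 0.05), 14 had a negative log2 difference, and the median was -0.20. Groups were apart with the FoxO-null label lower in 3 and higher in 0. The summed signal of the 22 partner genes with a probe set was 6197 to 6603 in the lines labelled FoxO-null. In those labelled wild-type it was 7159 to 7594. Cacybp, the S100a6 ligand, read 874, 846 and 798 in the lines labelled FoxO-null and 1217, 984 and 914 in those labelled wild-type. All 3 lines labelled FoxO-null were below the others, but the log2 difference of -0.29 ± 0.12 did not pass (limma adjusted p 0.446). Ppp5c, a phosphatase gene, was at -0.33 ± 0.14 (0.456) with overlapping groups. Syt1, a synaptic vesicle calcium sensor that binds S100a13, was at -0.43 ± 0.26 (0.607), with all lines labelled FoxO-null lower. The receptor gene Ager lay at or under the bacterial controls on all arrays, as did Il1a and Kcnk3.

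Annexins, the main protein targets of S100a10, S100a11 and S100a6, had 5 negative and 2 positive log2 differences among 7 tested, with a median of -0.30, and 0 were called by limma (0 at an unadjusted p under 0.05). Groups were apart with the FoxO-null label lower in 2 and higher in 1. The summed signal of the 11 annexin genes with a probe set was 1989 to 2115 in the lines labelled FoxO-null. In those labelled wild-type it was 2343 to 2802. Anxa1, Anxa2 and Anxa6 are also in the partner list. Anxa5 was at -0.30 ± 0.15 (limma adjusted p 0.536), with all lines labelled FoxO-null lower. Anxa3 was at -0.40 ± 0.24 (0.611), and wild-type 1 read 1227 while the other 5 lines read 535 to 572; without wild-type 1 the difference was -0.027. Anxa6 was at -0.34 ± 0.22 (0.625), with wild-type 1 at 283, low as in S100a10, and wild-type 2 and 3 at 546 and 576; leaving out wild-type 1 gave -0.67 (limma adjusted p 0.102), and leaving out either of the other two lines of that label gave -0.20 or -0.16 (0.848 and 0.846).

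Other EF-hand calcium sensors and buffers had a median of -0.06, with 9 positive and 14 negative among 23 tested, and limma called 0 (0 at an unadjusted p under 0.05). Groups were apart with the FoxO-null label lower in 1 and higher in 1. The neuronal calcium sensor gene Ncald was at 0.24 ± 0.12 (limma adjusted p 0.536), Hpcal1 at -0.21 ± 0.12 (0.585) and Rcn3, a calcium-binding protein of the secretory pathway, at -0.68 ± 0.39 (0.588).

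**Figure D5:**
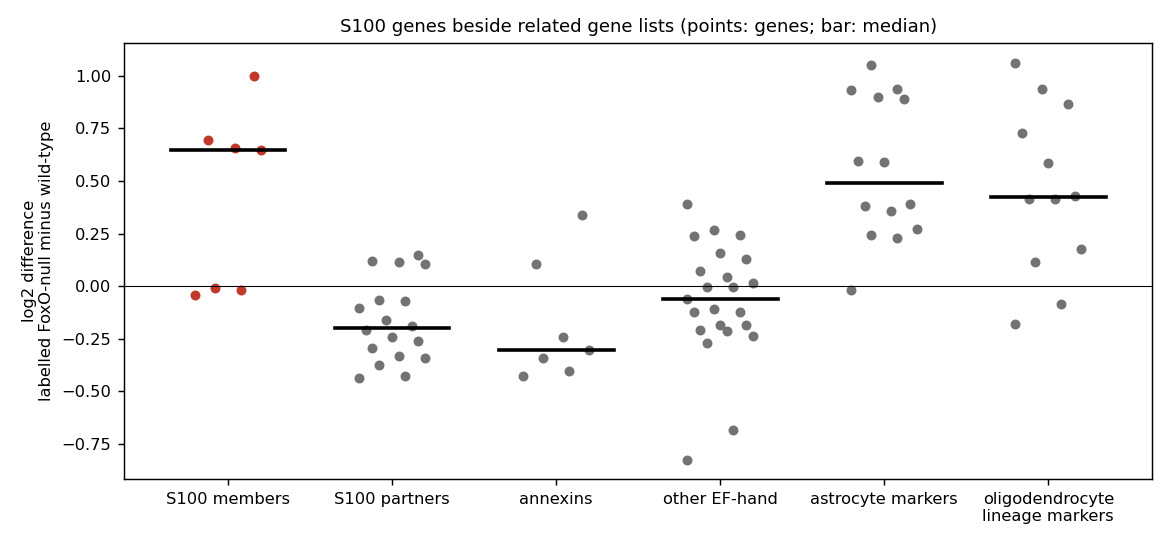
Log2 difference (lines labelled FoxO-null minus lines labelled wild-type, vertical axis) of each tested gene, by list, with the median of each list as a black bar. The S100 members (red) fall in 2 clumps, 4 genes at 0.65 or above and 3 near 0; the medians are -0.20 for partners, -0.30 for annexins, -0.06 for other EF-hand genes, 0.49 for astrocyte and 0.42 for oligodendrocyte lineage markers.

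The genes most like S100a1 over the 6 lines were sought by the root mean square difference of log2 profiles, each centred on its own mean. The smallest, over 12665 genes, was 0.091 for Acss1, an acetyl-CoA synthetase gene, then 0.10 for Cnp and 0.12 for Gabbr1, a GABA-B receptor subunit gene. Acss1 read 596, 478 and 526 in the lines labelled FoxO-null and 311, 251 and 329 in those labelled wild-type, which is the line order of S100a1 and S100a13. Among members the closest pairs were S100a13 with S100a16 at 0.17, S100a6 with S100a16 at 0.18 and S100a1 with S100a13 at 0.20, and the farthest was S100a1 with S100b at 0.67. For S100b the nearest genes were Rab17 at 0.16, Pcdhb15 at 0.16 and Dnajc6 at 0.16, all of weak signal between 11.5 and 41.9. These are likenesses over 6 lines that share group labels and are descriptions only.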

How the data were processed

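Per the submitters' processing notes, the authors made the deposited intensity signals with MAS5, whose version is not given in the sources used here. Per the labels' protocols, biotinylated cRNA came from 6 ug of total RNA. The mean signal after trimming 2% at each end was 100 on each array after rounding, so no further scaling was applied; 0 value columns were left out. Array medians were 25.5 to 32.8. Precision is limited by the number of arrays.

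Of 45037 non-control probe sets, the platform annotation gave 34945 a single gene, 932 several and 9160 none. A gene was represented by its probe set of highest mean. An offset of 5.94, the 20th percentile of the values, was added before log2, which understates changes of weak genes. Genes under the 40th percentile (a signal of 16.2) were left out of the gene fit, leaving 12665. Fits used limma 3.58.1 in R 4.3.3 (lmFit, eBayes with trend, two-sided, no covariates). Log2 differences and standard errors of S100, FoxO and neighbouring genes, and the neighbours' tests, come from the fit of all non-control probe sets; those of S100a5, partners and markers, and the values of S100 genes with a line left out, come from the gene fit. Background was the highest of 27 Bacillus subtilis control probe sets per array. On simulated data for FoxO-null against wild-type with 12665 genes, 80.6% of genes changed 4-fold and 41% of those changed 2-fold were recovered. The simulation planted 200 changed genes, with noise independent between genes and spreads shuffled among them. Real data differ in these respects, so the rates check the code and are not the power of the real comparison.

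The members and lists were chosen with earlier results of these data known. The naming rule took all members, the other S100 genes, Foxo1, Foxo3 and Foxo4, up to 4 called genes per list or else the 3 of smallest p, neighbours, and the 3 genes most like S100a1 and S100b; microglial, mesenchymal, endothelial and ependymal lists are given as counts. Of these, 1 of 3, 1 of 4, 0 of 1 and 1 of 3 tested genes had a positive log2 difference, and 0 were called or had an unadjusted p under 0.05. Alternatives were the offset, scaling, filter, probe set rule, trend, a replicate block and leaving out each line.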

Additional observations from a re-analysis of the deposited data

How the results depend on the processing

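The genes called by limma numbered 5, and the S100 genes among them 1, S100a1. Both counts moved with the processing: to 1 and 0 with an offset of 1, quantile normalization, no filter on low signals or the mean of all probe sets of a gene, and to 0 and 0 with median centring (1048 genes at an unadjusted limma p under 0.05) or without the intensity trend (1116). Leaving out 1 line gave 0 to 13 genes and 0 to 1 S100 genes. With an offset of 16, S100a1 stayed called. Counts of called partner, annexin, other EF-hand and other S100 genes were 0 in each alternative. Of 98 values of the 7 S100 genes under 14 alternatives, 97 moved by less than the spread between lines; the other was S100a1 at 0.78 with the mean of its probe sets. Over the fits that left out 1 line, S100a1 ranged from 0.92 to 1.09, S100a13 from 0.51 to 0.81, S100a16 from 0.52 to 0.79 and S100a6 from 0.56 to 0.72. S100a10, S100a4 and S100b changed sign among those fits. Anxa2 turned to 0.053 with the mean of its probe sets and, leaving out 1 line, ranged from -0.66 to 0.063. Cnp lost its call with an offset of 1 (adjusted p 0.0572), median centring (0.157), quantile normalization (0.0501), no filter (0.0750), the mean of probe sets (0.143) or no trend (0.485), and Hes5 with median centring (0.0607) or no trend (0.485). Causes were not tested. Lines share replicate numbers in the labels, but deviations of equal-numbered lines correlated at only 0.023, 0.091 and 0.12 across genes, so the numbers were not taken as pairs, although 5 of 6 lines correlated best with their own number (all but wild-type 1), a hint from the data and not from the design; with the replicate block 6 genes and 1 S100 gene were called. Weak signals limit S100a4, S100a5 and the third S100a10 probe set most.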
